A study of Mus musculus with 6 samples.

Results

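The serine, one-carbon, asparagine and proline synthesis enzymes are a group of 10 genes, Phgdh, Psat1, Psph, Shmt1, Shmt2, Mthfd2, Asns, Aldh18a1, Pycr1 and Cth, known as targets of the transcription factor ATF4. They were chosen by gene symbol, with earlier results of these data known. Their counts beside those of all genes are therefore a description and not a test of the group. A probe set (the group of probes on the array that reports on a transcript) was taken as theirs where the platform annotation gave that symbol alone. This found 25 of the 22626 probe sets that are not array controls, for 9 of the 10 genes. Pycr1 was not analysed here. The cells were C2C12 myotubes, made from an established mouse myoblast line by keeping confluent cultures in 2% horse serum for 5 days. One group of 3 arrays came from myotubes given 500 µM palmitate, a saturated fatty acid, for 16 h. The other group of 3 arrays came from myotubes given 1% bovine serum albumin (BSA), the carrier protein on which the fatty acid was supplied, over the same time. The BSA level given with the palmitate is not stated. The labels do not state whether the arrays of a group stand for different cultures. The p-values therefore rest on the scatter among these arrays alone, which may be technical, and the number of arrays limits the precision.

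Cells build serine from the glycolytic intermediate 3-phosphoglycerate in successive steps run by PHGDH, PSAT1 and PSPH. Serine hydroxymethyltransferases split serine into glycine and a one-carbon unit carried on folate, and MTHFD2 oxidises that unit inside mitochondria. Asparagine comes from aspartate and glutamine through ASNS, proline from glutamate through ALDH18A1 and PYCR1, and cysteine from cystathionine through CTH. ATF4 is translated more when the initiation factor eIF2 is phosphorylated, as happens when amino acids run short or proteins misfold in the endoplasmic reticulum, and it turns on many amino acid synthesis genes through C/EBP-ATF response elements.

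Stretches of 2 promoters are shown because they hold the core of that element within the window examined. RefSeq promoter windows (build GRCm38.p6, 250 bases before to 50 after a gene's start) were given for 9 of the 10 genes, in 10 windows, and Cth had none. The core TGATGNAAN, searched on both strands, was found in 2 of the 9 genes and in 3.95% of all 32851 promoter windows. The capitals mark the core, and both stretches end at or before the base next to the gene's start. The Asns stretch lies at chr6:7693210-7693272 and the Pycr1 stretch at chr11:120643803-120643891, both on the minus strand.
Asns: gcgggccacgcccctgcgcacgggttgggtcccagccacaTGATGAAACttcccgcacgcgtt
Pycr1: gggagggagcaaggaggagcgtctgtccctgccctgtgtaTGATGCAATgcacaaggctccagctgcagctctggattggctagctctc
The core began 23 bases before the start of Asns and 103 bases before that of Pycr1. The other 7 genes with a window had no match to these letters in it. A match is a description of the sequence, and no binding was measured.

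Arrays of the same treatment correlated at 0.943 to 0.959 over the probe sets, and arrays of different treatments at 0.883 to 0.910. BSA replicate 1 and palmitate replicate 2 stood apart from the rest on the second principal component (17.7% of the variance). Palmitate replicate 2 also had the lowest ratio of the 3' to the 5' control probe set of Gapdh, a measure of RNA integrity (log2 -0.20, against 0.19 to 0.35 on the other arrays). Its b-actin ratio was the lowest too (0.237, against 0.472 to 0.599), so this array had the least excess of 3' over 5' signal. The 18 myotube markers, such as Acta1 and Myog, were all tested, and their summed signal was 188700 to 305000 with BSA (highest on replicate 1) and 205300 to 218600 with palmitate. Of these 1 fell (Cav3) and 0 rose, with a median log2 fold change of -0.27. After scaling to spiked controls 9 fell, with a median of -0.60. That scaling shifted every log2 fold change by -0.33, and 3169 of all 13575 probe sets tested then fell. The counts that follow are from the deposited signals. Of 8 tested markers of proliferating myoblasts 6 fell, the summed signal going from between 46310 and 59540 to between 29730 and 33610. Of 7 fibroblast markers on the array, Lum and Thy1 lay below the filter, and the 5 tested all fell, where 12.3% of all genes tested fell. The sum of the list went from between 94420 and 115900 to between 26850 and 31860, and its brightest genes were Col3a1, Col1a2 and Col1a1. Whether such cells were present was not tested. Of 4 adipocyte, 6 macrophage and 5 endothelial markers on the array, 1, 2 and 0 passed the filter and 0 were called. The part of these markers and of the RNA measure in the results below was not tested.

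Palmitate-treated myotubes had more transcript of 8 of the 9 measured enzyme genes, and of none less, where each gene is read from its brightest probe set. The rises ran from 1.42-fold for Psat1 to 3.05-fold for Cth, and the exception was Shmt1. Among all 7931 genes tested, 7.92% rose and 12.3% fell, 20.2% in all, by the same rule (limma, Benjamini-Hochberg adjusted p under 0.05 over all 13575 probe sets tested). The median log2 fold change was 0.74 over the 9 enzyme genes and -0.05 over all genes tested. For 8 of the 9, every palmitate array lay above every BSA array, which was so for 15.9% of all genes tested. For 0 of the 9 were they all below, against 22.4% of all genes tested. All 9 genes passed the filter that removes dim probe sets and keeps those with a mean signal above 267.1. Without BSA replicate 1, 8 of the 9 were called, and without palmitate replicate 2, 7 were. Fewer cells of a type and less RNA per cell cannot be told apart in such bulk samples. How the arrays are scaled bears on these counts: after scaling to spiked hybridisation controls, 2 of the 8 rises passed, as described below.

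**Figure D1:**
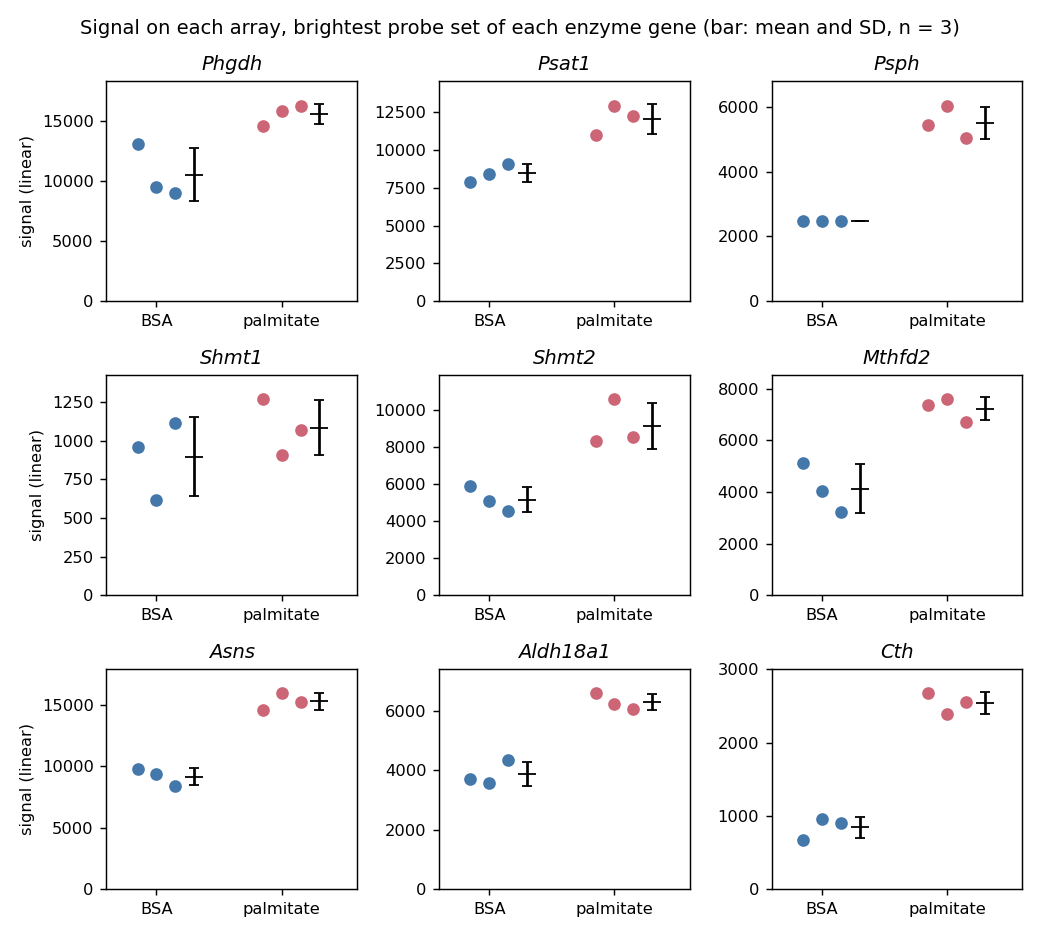
Signal (linear scale, from 0) on each array for the brightest probe set of each of the 9 measured genes, with BSA arrays in blue, palmitate arrays in red and a bar for the mean and SD of 3 arrays. The 2 groups are apart in every panel but that of Shmt1, and the gap is widest relative to the BSA level for Cth (3.05-fold).

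Of the 3 serine synthesis genes, the last enzyme changed most. Psph encodes the phosphatase that releases serine. Its signals were 2485.5, 2473 and 2469.6 on the BSA arrays and 5433, 6035 and 5036 on the palmitate arrays. The BSA arrays were almost level and every palmitate array was well above them. Psph rose 2.22-fold, a log2 fold change of 1.15 ± 0.15 (SE, n = 3 arrays per group, limma adjusted p = 0.000261).

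Phgdh encodes the dehydrogenase that commits 3-phosphoglycerate to serine. Its signals were 13082, 9518 and 9051 with BSA and 14629.6, 15853 and 16307.5 with palmitate. BSA replicate 1 lay close to the lowest palmitate array, and the groups did not overlap. Phgdh rose 1.50-fold, by 0.58 ± 0.16 on the log2 scale (limma adjusted p = 0.0212). Psat1 encodes the aminotransferase of the middle step. With BSA it was at 7872, 8429 and 9092, and with palmitate at 10978, 12932 and 12272. Here too all palmitate arrays were above all BSA arrays, and the rise was 1.42-fold, or 0.51 ± 0.13 (limma adjusted p = 0.0192). Both calls depended on which arrays were kept. That of Phgdh was lost without BSA replicate 2, BSA replicate 3 or palmitate replicate 3 (adjusted p up to 0.0926), and that of Psat1 without BSA replicate 2, palmitate replicate 2 or palmitate replicate 3 (adjusted p up to 0.0683).

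Of the 3 one-carbon members, Shmt2 and Mthfd2, which encode mitochondrial enzymes, rose, and Shmt1 did not pass the test on its brightest probe set. Shmt2, the mitochondrial serine hydroxymethyltransferase, had signals of 5886, 5065 and 4549 with BSA and 8353, 10583 and 8533 with palmitate. Palmitate replicate 2 was the highest array and no array crossed over. The rise was 1.77-fold (0.83 ± 0.16, limma adjusted p = 0.00332). Mthfd2, the mitochondrial methylenetetrahydrofolate dehydrogenase, was at 5125, 4017 and 3224 with BSA and at 7383, 7590 and 6717 with palmitate. Its BSA arrays spread more widely than its palmitate arrays, and it rose 1.78-fold (0.83 ± 0.18, limma adjusted p = 0.00656).

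Shmt1, the cytosolic isozyme, had signals of 956.4, 614.8 and 1115 with BSA and 1268, 910.7 and 1072 with palmitate. The groups overlapped, with palmitate replicate 2 below 2 of the BSA arrays. Its log2 fold change was 0.31 ± 0.26 (95% interval -0.26 to 0.87, limma adjusted p = 0.452).

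Asns, which makes asparagine, was at 9758, 9346 and 8374 with BSA and at 14642, 15994 and 15296.5 with palmitate. Both groups were tight and far apart. Asns rose 1.67-fold (0.74 ± 0.13, limma adjusted p = 0.00179). Aldh18a1 encodes the enzyme that turns glutamate into the precursor of proline and ornithine. Its signals were 3709.8, 3577 and 4329 with BSA and 6597, 6221 and 6059 with palmitate, without overlap. The rise was 1.63-fold (0.70 ± 0.14, limma adjusted p = 0.00555).

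Cth, the lyase that yields cysteine in transsulfuration, changed most of the 9. It went from 674.6, 949.6 and 894.9 with BSA to 2675, 2383 and 2557 with palmitate. The lowest palmitate array was more than double the highest BSA array. Cth rose 3.05-fold (1.61 ± 0.19, limma adjusted p = 0.000169), and 0.693% of the genes tested rose more. For Psph that share was 2.09%, for the other genes past the threshold it lay between 4.92% (Mthfd2) and 13.1% (Psat1), and for Shmt1 it was 23.3%.

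Most of these genes were read by several probe sets, which did not move by the same amount. Of the 25 probe sets, 24 passed the filter. Of these, 14 were called higher and 0 lower, where 8.63% of all probe sets tested were called higher and 10.6% lower (19.2% in all). In 17 of the 24 every palmitate array lay above every BSA array, as in 17.6% of all probe sets tested. Of the 24, 23 had a log2 fold change above 0. A suffix _x_ or _s_ in a probe set's name marks probes that may also match other transcripts. The 10 probe sets without it had a median log2 fold change of 0.93 and 8 were called higher. The 14 with it had a median of 0.46 and 6 were called higher. Over everything tested the medians were -0.0034 without the suffix and -0.031 with it.

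**Figure D2:**
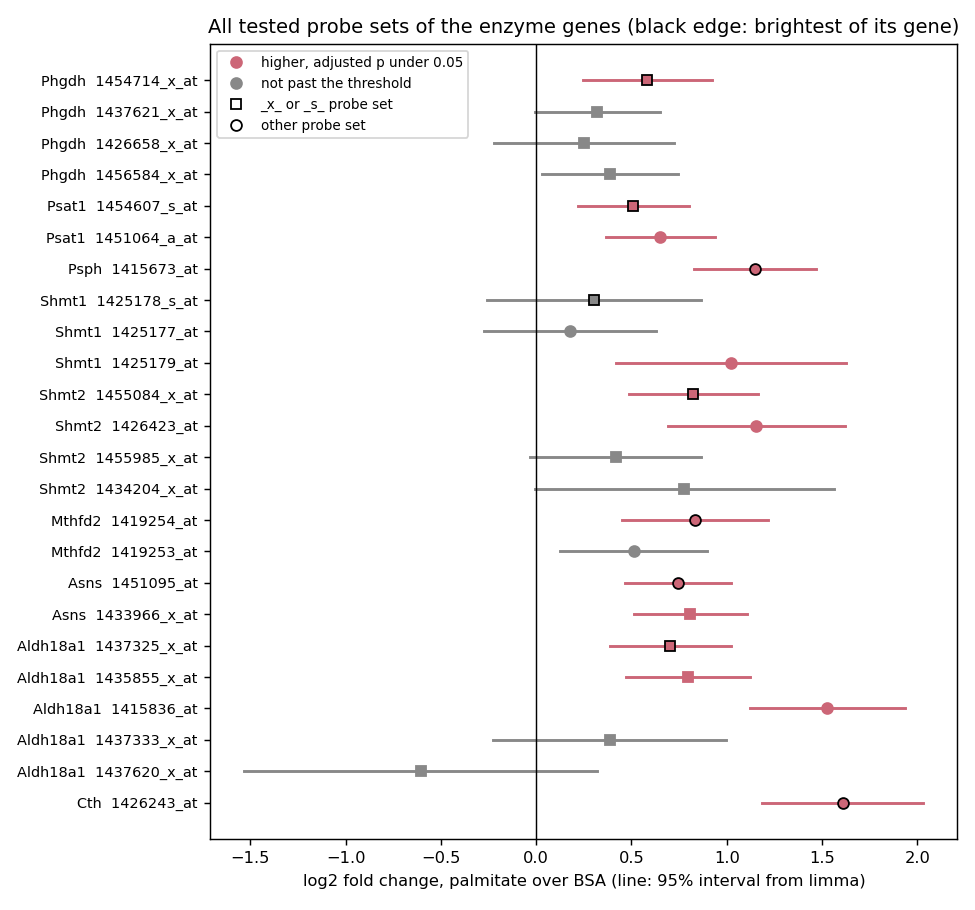
Log2 fold change of palmitate over BSA with its 95% interval from limma for the 24 tested probe sets of the 9 genes. Squares are probe sets with an _x_ or _s_ suffix, black edges mark the brightest of each gene, and red marks the 14 called higher. Aldh18a1 spans from -0.61 to 1.53 between its probe sets.

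The spread between probe sets was widest for Aldh18a1. Its probe set with no such suffix (1415836_at) went from 833.9, 713.4 and 902.1 with BSA to 2238, 2252 and 2557 with palmitate. That is a 2.89-fold rise (1.53 ± 0.19, limma adjusted p = 0.000176), larger than on the brightest probe set. A second _x_ probe set rose by 0.80 ± 0.15. The remaining 2 did not pass, at 0.39 ± 0.28 and -0.61 ± 0.42.

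Shmt2 had the same order. Its probe set without the suffix (1426423_at) was at 1884, 1475 and 1423 with BSA and at 2717, 4624 and 3482.5 with palmitate. It rose 2.23-fold (1.16 ± 0.21, limma adjusted p = 0.00277). The 2 other _x_ probe sets were at 0.42 ± 0.21 and 0.78 ± 0.36 and did not pass.

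For Phgdh only the brightest of 4 probe sets passed. All 4 carry the _x_ suffix, and the other 3 were at 0.32 ± 0.15, 0.25 ± 0.22 and 0.39 ± 0.16 (limma adjusted p = 0.164, 0.463 and 0.125). Averaged over its 4 probe sets, Phgdh was at 0.38 (adjusted p = 0.0863). A further 2 probe sets name Phgdh together with a predicted gene (Gm8096 or Gm6756) and were left out by the rule. Probe set 1426657_s_at ran from 1981 to 2812 with BSA and from 3036.5 to 5202.5 with palmitate, and 1456471_x_at from 4092 to 4825 and from 5046 to 6875.

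Shmt1 was called on 1 of its 3 tested probe sets. Probe set 1425179_at went from 400.9, 311 and 358.9 with BSA to 705.8, 680.4 and 781 with palmitate (1.02 ± 0.28, limma adjusted p = 0.0227). Its BSA signals were near the filter. Probe set 1425177_at was at 0.18 ± 0.21. The untested one, 1422198_a_at, lay between 17.5 and 293.5 on the 6 arrays. The probe sets of Psat1 agreed better, since the second rose by 0.65 ± 0.13, and so did those of Asns (second at 0.81 ± 0.14). The second probe set of Mthfd2 was at 0.51 ± 0.18 (limma adjusted p = 0.0647), with all its palmitate arrays above all its BSA arrays.

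Enzymes of related steps were compared as the difference between their log2 changes on each array, for 4 pairs. With 3 arrays against 3 the smallest possible two-sided exact permutation p is 0.1. The 1 pair without overlap was Psat1 against Got1, the cytosolic aspartate aminotransferase. The log2 change of Psat1 minus that of Got1 was -0.74, and all palmitate arrays fell below all BSA arrays in this difference (exact permutation p = 0.1, 0.267 adjusted over the 4 pairs).

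Mthfd2 was set against Mthfd1, the cytosolic folate enzyme that carries out the same oxidation among other steps. Mthfd1 was at 0.022 ± 0.19, a value whose sign turned under spiked control scaling, with probe sets averaged and without BSA replicate 1 or palmitate replicate 3 (down to -0.31). The log2 change of Mthfd2 minus that of Mthfd1 was 0.81 (exact permutation p = 0.2, adjusted 0.267), and the groups overlapped. Shmt2 against Shmt1 differed by 0.52, with overlapping groups (exact permutation p = 0.3, also after adjustment). The difference was 0.25 without BSA replicate 3, 0.29 without palmitate replicate 2 and 0.29 with probe sets averaged. Aldh18a1 was set against Aldh4a1, a dehydrogenase of proline breakdown. They differed by 0.41 (exact permutation p = 0.2, adjusted 0.267). None of the 4 differences was past the threshold, which this design cannot reach.

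The neighbouring pathways were read from lists of genes around these enzymes, and genes without a probe set of their own or below the filter were not tested. Tested were 8 of 21 listed folate and one-carbon genes and 7 of 14 of the methionine cycle and transsulfuration. For other serine and glycine genes it was 4 of 13, and for proline, glutamate and aspartate genes 14 of 20. For purine synthesis it was 8 of 12 and for lower glycolysis 7 of 9. Over all genes tested, 7.92% rose and 12.3% fell, 20.2% in all, which is the share to set beside each count from the deposited signals. It does not apply to the counts after scaling to spiked controls. That scaling called 404 of all 13575 probe sets tested higher and 3169 lower. Of 8 other folate and one-carbon genes, 0 rose and 1 fell, with a median of 0.099. The fall was that of Ggh, which removes glutamate tails from folate. Its signals were 1499, 1535 and 2052 with BSA and 825.2, 1053.5 and 925.8 with palmitate (-0.85 ± 0.21, limma adjusted p = 0.0134, and 0.0652 without BSA replicate 3). Mtrr, which reactivates methionine synthase, was at 0.32 ± 0.17 as deposited and at -0.011 after scaling to spiked controls. Of 7 genes of the methionine cycle and transsulfuration, 0 rose and 0 fell by limma, with a median of -0.026 and 2 at an unadjusted p under 0.05. These were Tst (-0.95 ± 0.37) and Mat2b (-0.58 ± 0.25), both below 0, and Tst passed in a fit without the intensity trend. After scaling to spiked controls 2 fell, Tst (-1.28, limma adjusted p = 0.0292) among them, and with probe sets averaged 1 rose. Cbs, the enzyme before Cth, was below the filter, with signals from 52.1 to 322.8 on the 6 arrays. Of 4 other serine and glycine genes, 0 passed, at a median of 0.087 and with 0 at an unadjusted p under 0.05. With probe sets averaged 1 rose, and after scaling to spiked controls 1 fell. The lowest was Srr, serine racemase, at -0.88 with limma adjusted p = 0.17.

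Of 14 other genes of proline, glutamate and aspartate metabolism, 3 rose and 2 fell, with a median of -0.12. Got1 was at 2992, 2534.5 and 2946 with BSA and at 5751, 8195 and 6376.5 with palmitate, a 2.38-fold rise (1.25 ± 0.17, limma adjusted p = 0.000385). Gpt2, the mitochondrial alanine aminotransferase, rose by 0.94 ± 0.17. That call was lost with probe sets averaged, with unsuffixed probe sets and under spiked control scaling (adjusted p up to 0.227). Odc1, the first enzyme of polyamine synthesis, rose by 0.80 ± 0.12. Glutamine synthetase, Glul, fell by 0.88 ± 0.19, and Asnsd1, a gene with an asparagine synthetase-like domain, fell by 0.70 ± 0.18. The last call was lost without BSA replicate 1 or palmitate replicate 3 (adjusted p up to 0.0584).

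Of 8 purine synthesis genes, which use one-carbon units, 0 rose and 1 fell, at a median of 0.18. The fall was that of Paics (-0.52 ± 0.14, limma adjusted p = 0.0199). It was lost without BSA replicate 2, BSA replicate 3 or palmitate replicate 3 (adjusted p up to 0.0873). Adss, of the branch to AMP, was at 0.45 ± 0.16 (limma adjusted p = 0.0643). Of 7 genes of lower glycolysis, around the intermediate that feeds serine synthesis, 0 rose and 1 fell, at a median of 0.091. That was Pgam2, the muscle phosphoglycerate mutase, which went from 1084, 1003 and 656.9 to 121.1, 357.1 and 196.4 (-2.13 ± 0.42, limma adjusted p = 0.00408). On palmitate replicates 1 and 3 its signal lay below the filter value, so the size of the fall is imprecise. Eno3, the muscle enolase, was at -0.49 ± 0.16 (limma adjusted p = 0.0543). It passed in 5 of 18 alternatives, and leaving out 1 array moved it to between -0.59 and -0.30.

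**Figure D3:**
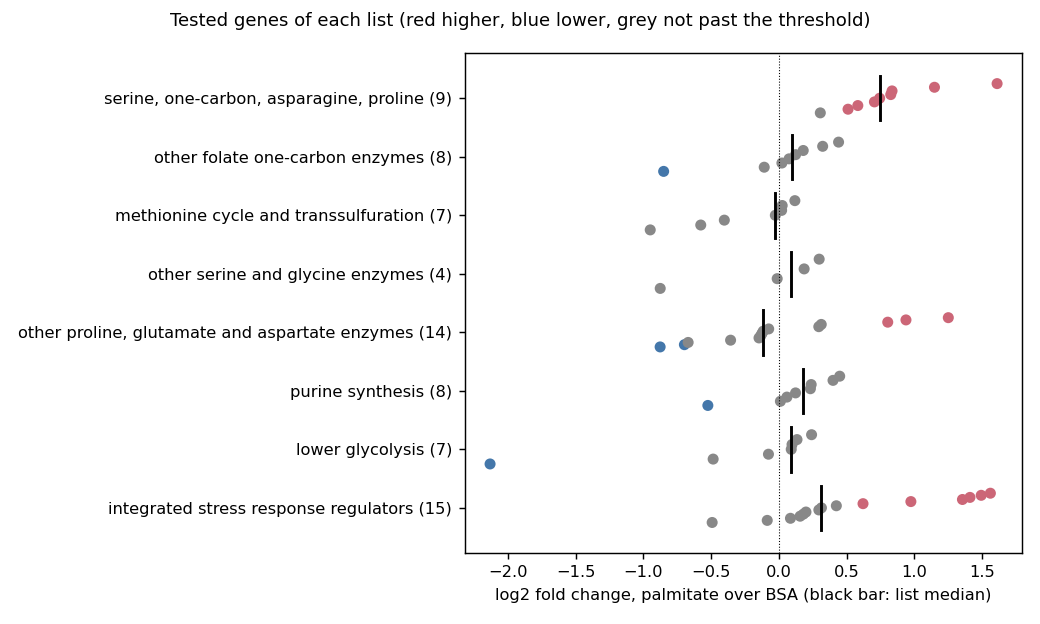
Log2 fold change of palmitate over BSA for each tested gene, by list, with the number of tested genes in brackets and a black bar at the list median. The enzyme genes have a median of 0.74, the 6 neighbouring metabolic lists lie between -0.12 and 0.18, and the regulators of the integrated stress response are at 0.31.

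The regulators of the integrated stress response, the pathway that runs through eIF2 and ATF4, rose in part. Of 15 tested, 6 rose and 0 fell, with a median of 0.31, where 7.92% of all genes tested rose and 12.3% fell. After scaling to spiked controls 5 rose and 1 fell, and the median was -0.020. Of all 13575 probe sets tested, 404 rose and 3169 fell under that scaling. Atf4 itself went from 16893, 14571 and 12699.5 with BSA to 28649.7, 28702.5 and 28792 with palmitate. The 3 palmitate arrays were almost identical and all above the BSA arrays (1.96-fold, 0.97 ± 0.13, limma adjusted p = 0.000407). Ddit3, which encodes the factor CHOP, rose by 1.56 ± 0.14. Ppp1r15a, which brings the phosphatase to eIF2, rose by 1.49 ± 0.18, the ATF4 inhibitor Trib3 by 1.35 ± 0.19 and Myc by 1.41 ± 0.14. Eif2ak3, the eIF2 kinase PERK, rose by 0.62 ± 0.20 (limma adjusted p = 0.0477), a call lost on leaving out any 1 array (adjusted p up to 0.13). Of the other 3 eIF2 kinases, Eif2ak1 (0.20 ± 0.26), Eif2ak2 (-0.49 ± 0.21) and Eif2ak4 (-0.086 ± 0.31) did not pass. Nor did Atf5 (0.18 ± 0.20), Cebpb (0.29 ± 0.13) or Cebpg (0.16 ± 0.17), members of the same family of factors as ATF4 or partners of it.

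The genes whose levels followed the mean of the 9 enzyme genes most closely over the 6 arrays were sought among the 7922 other genes tested. Likeness was the root mean square difference of log2 signals, each gene taken relative to its own mean. The nearest were Odc1 (0.0476), Nip7 of ribosome assembly (0.0527), the isoleucyl-tRNA synthetase Iars (0.057), the signal peptidase subunit Spcs2 (0.0589) and the nucleolar protein Noc2l (0.0619). Their rises lay between 1.65-fold (Nip7) and 1.82-fold (Spcs2). After scaling to spiked controls Nip7 (0.39), Iars (0.41) and Noc2l (0.44) lost their calls (adjusted p = 0.182, 0.12 and 0.162). On the mean of its probe sets Nip7 was at 0.37 and did not pass (limma adjusted p = 0.19). The mean of the enzyme genes themselves ran from -0.46 to -0.33 on the BSA arrays and from 0.37 to 0.43 on the palmitate arrays.

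The direction of most of these changes was kept under other scalings, but several calls were not. The deposited arrays were scaled to equal mean signal. The 9 probe sets for spiked hybridisation controls were brighter with palmitate (mean log2 signal 13.15 ± 0.14 against 12.82 ± 0.14, SD, n = 3, exact permutation p = 0.1, two-sided). Scaling the arrays to them lowered every log2 fold change by 0.33 and moved the median of all genes tested to -0.38. Of all 13575 probe sets tested, 404 were then called higher and 3169 lower. Of all probe set calls, 11.3% were then higher, against 44.9% as deposited. The median of the 9 enzyme genes was then 0.41, and 2 of them were called higher and 0 lower. Those were Cth (1.28, limma adjusted p = 0.000549) and Psph (0.81, limma adjusted p = 0.00613). Shmt2 (0.49), Mthfd2 (0.50), Asns (0.41) and Aldh18a1 (0.37) were above 0 with limma adjusted p from 0.0697 to 0.183. Phgdh was at 0.25 and Psat1 at 0.18, with limma adjusted p = 0.341 and 0.486. Shmt1 turned to -0.028. The unsuffixed probe sets of Shmt2 (0.82, limma adjusted p = 0.016) and Aldh18a1 (1.20, limma adjusted p = 0.00121) kept their calls under this scaling. Among the other genes, Atf4 (0.64), Ddit3 (1.23), Got1 (0.92) and Odc1 (0.47) kept theirs, and Gpt2, Eif2ak3, Nip7, Iars and Noc2l did not. Since the shift is common to all genes, every value between 0 and 0.33 as deposited turned negative. The medians of the lists of other folate, other serine and glycine, purine and lower glycolysis genes did so too (-0.23, -0.25, -0.16 and -0.24). The same amount of total RNA, 10 µg, is given for every array, so neither scaling measures amounts per cell. Which scaling is nearer to the amounts in the RNA was not tested.

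**Figure D4:**
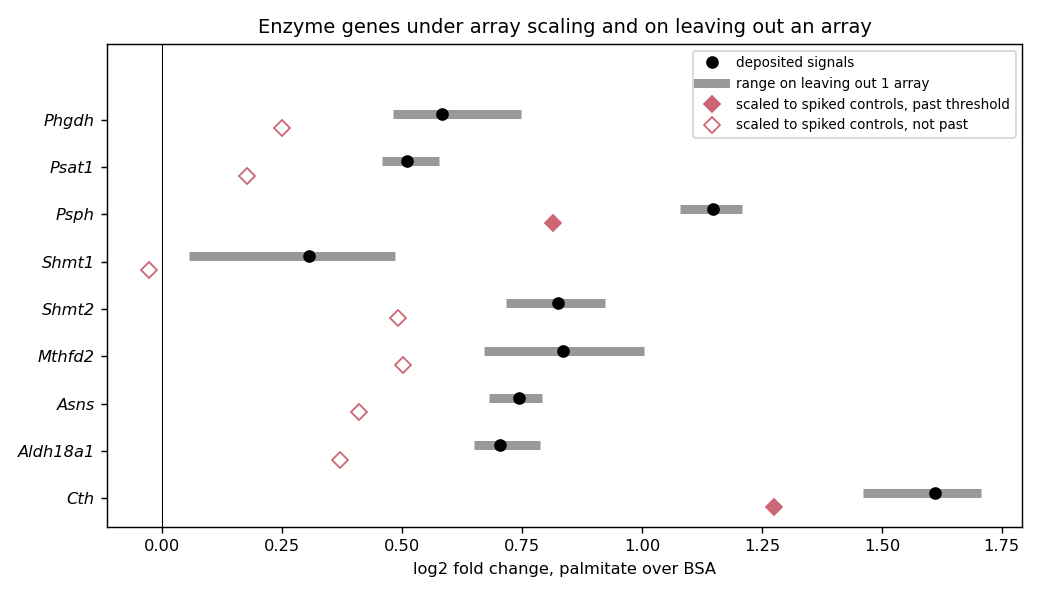
Log2 fold change of palmitate over BSA for each of the 9 genes with the deposited signals (black), over the fits that leave out 1 array (grey bar), and after scaling the arrays to spiked controls (red diamonds, filled where past the threshold). Under control scaling Psph and Cth stay past the threshold and Shmt1 lies at -0.028.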

How the data were processed

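Per the series' design text, RNA of C2C12 myotubes was measured on Affymetrix mouse 430A 2.0 arrays, and the authors deposited linear signal intensities from the MAS5 software, with settings not given in the sources used here. Every array had a 2% trimmed mean of 1500.5 to 1500.56, so arrays had been scaled to equal mean signal, which hides a shift of most transcripts in 1 direction.

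Signals were log2 transformed. The 13575 probe sets whose mean log2 signal exceeded the 40th percentile were fitted with limma 3.58.1 in R 4.3.3 (lmFit, eBayes with an intensity trend). Tests were two-sided, p-values were adjusted over all of these by Benjamini-Hochberg, and the threshold was 0.05. The fit was tested on simulated data. A gene was read from its brightest tested probe set. Array checks and enzyme pairs used an exact permutation test. The pairs Mthfd2 with Mthfd1l and Cth with Cbs were not run, since each had a gene that was not tested, and 1 further planned pair is not reported here. The members and lists were chosen with earlier results of these data known. Named genes were the 10 members, up to 4 genes of each list with the smallest p, the paired genes, Atf4, Ddit3 and the 5 nearest profiles. Others (Asnsd1, Trib3, Eif2ak1 to Eif2ak4, Atf5, Cebpb, Cebpg and Cav3) were named after their values were seen. Of the listed genes, 1 (Pycr3) was matched through a RefSeq synonym. Alternatives were other scalings, filters, variance models and probe set rules, an offset, a replicate block and leaving out each array.

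Replicate numbers did not pair the arrays, since deviations of arrays with the same number correlated at -0.233, -0.133 and 0.00914.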

Additional observations from a re-analysis of the deposited data

How the results depend on the processing

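Counts are of tests at the 0.05 threshold. Scaling to spiked hybridisation controls changed the results for the enzyme genes most: 2 of 9 were called, and the median log2 fold change was 0.41. Over all 13575 probe sets tested, 404 were then called higher and 3169 lower. As the shift is common to all genes, small positive values turned negative, among them Shmt1 (-0.028), Mthfd1 (-0.31), Aldh4a1 (-0.039) and Mtrr (-0.011). Mthfd1 also turned negative with its probe sets averaged (-0.032) and on leaving out 1 array (lowest -0.15, highest 0.15). Reading each gene from a probe set without the _x_ or _s_ suffix where it had one, an alternative chosen after seeing the data, gave a median of 0.835 and 8 called; this kept a suffixed probe set for Phgdh, and over the 8 genes with an unsuffixed one the median was 0.99 and 7 were called. Under median, 75th percentile or quantile scaling, an offset, robust variances, no filter or a stricter filter, 8 of 9 were called. The number called was 6 without the intensity trend, 7 with probe sets averaged and 6 to 8 on leaving out 1 array, with Phgdh and Psat1 among those lost. The calls of Psph and Cth held in each alternative run. The count over all probe sets, 2609 as reported, ran from 1579 (without BSA replicate 2) to 2315 on leaving out 1 array. With the replicate number as a block, 6 of 9 enzyme genes and 1973 probe sets were called; 0 of the 6 arrays correlated best with the array of their own number. The 4 enzyme pair differences kept their sign under quantile normalization, the offset, averaging and leaving out 1 array (scalings that shift a whole array cannot change them), and the array checks on leaving out 1 array, the only alternative run for them. Genes as dim as Cbs were left out by the filter.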
